A study of Mus musculus with 12 samples.

Results

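The 10 genes described here encode the pump, release, storage and trigger proteins of calcium cycling in heart muscle: Atp2a2, Pln, Ryr2, Jph2, Casq1, Casq2, Cacna1c, Cacna2d1, Cacna2d2 and Slc8a1. They were taken by symbol from a list of calcium pump, release, storage and L-type channel genes, and 10 of the 25239 gene symbols in each deposited count table are members. RNA-seq libraries of mouse heart cardiomyocytes were compared between 4 groups of 3 libraries. In the groups Chaf1a cko and Chaf1a cko 3M, Myh6-Cre, a Cre recombinase under the promoter of the adult cardiac myosin heavy chain gene, acted on floxed Chaf1a alleles (Chaf1a f/f). The groups Ctrl and Ctrl 3M carried Chaf1a f/f without Cre and are named WT in the tables, so all 12 libraries share the floxed alleles and Cre goes together with the genotype. The product of Chaf1a is a subunit of chromatin assembly factor 1, a complex that places histones on newly copied DNA. The protocols in the labels name cultured cardiomyocytes as the RNA source. The labels do not spell out 3M, give no age for either set and leave the origin of the 3 libraries of a group unstated. The spread behind every p-value is therefore that of the libraries and may be technical.

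With each heartbeat, calcium enters through the L-type channel in the surface membrane and opens the ryanodine receptor, which releases much more calcium from the sarcoplasmic reticulum, the store inside the muscle cell. Contraction ends when the pump SERCA returns calcium to the store and the sodium-calcium exchanger moves the rest out of the cell. Phospholamban holds the pump back until it is phosphorylated, and calsequestrin binds calcium inside the store.

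The table with Chaf1a cko and Ctrl, called the first set, and the table with Chaf1a cko 3M and Ctrl 3M, called the 3M set, were scaled and tested separately. Library totals were 15068468 to 20896673 counts in the first set and 10569325 to 16445963 counts in the 3M set. Values below are CPM, counts scaled to the library total, with TMM factors. Replicates agreed more closely in the first set: over genes of at least 100 CPM the median coefficient of variation was 4.23% in Chaf1a cko and 4.50% in Ctrl, against 13.5% in Chaf1a cko 3M and 20.0% in Ctrl 3M. The cardiomyocyte marker Myh6 was at 36818 CPM or more in the first set and at 13251 CPM or more in the 3M set, and no list of 10 markers of endothelium, fibroblasts, mural cells or macrophages had a gene at 0 in every library. The targeted gene Chaf1a had 29.0, 24.5 and 21.95 CPM in Chaf1a cko, against 22.7, 32.3 and 18.8 CPM in Ctrl. In the 3M set it had 8.34, 5.58 and 5.54 CPM in Chaf1a cko 3M, against 1.88, 4.74 and 9.75 CPM in Ctrl 3M. It was not lower in the libraries labelled cko, and every direction below is by label. Counts over a whole gene cannot show whether its floxed part was removed. The log2 fold change of Chaf1a was 0.03 (95% interval -0.36 to 0.42) in the first set and 0.25 (-1.13 to 1.63) in the 3M set, and its exons overlap those of Ubxn6 on the other strand by 1862 bases. Ubxn6 was at 37.6 CPM in Chaf1a cko and 39.4 CPM in Ctrl, and at 83.0 CPM in Chaf1a cko 3M and 82.3 CPM in Ctrl 3M. Y-linked reads, summed over 4 genes, were at least 115 CPM in each Chaf1a cko library and at most 61.1 CPM in each Ctrl library, and Xist was at 270 CPM or more in every first-set library, so sex mixture and genotype cannot be told apart there. In the 3M set the Y-linked sum was 355 to 394 CPM in Chaf1a cko 3M and 393 to 646 CPM in Ctrl 3M. Xist was at 3.98 CPM or less in every 3M library. The first table also held reads in genes taken as silent in heart: 94.8% to 97.6% of 1523 chemoreceptor genes had counts in each library, with a 95th percentile of 2.73 CPM per kb of exon. In the 3M set 1.25% to 1.71% of them had counts. A count above 0 in a first-set library therefore does not by itself show expression.

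In the first set the pump gene Atp2a2 and the release channel gene Ryr2 fell by small amounts, the calcium channel subunit gene Cacna2d2 fell by more than any other member, and the calsequestrin gene Casq1 rose. Of the 10 members 10 passed the filter on low counts, and 4 passed the test, 1 higher and 3 lower, where 1.18% of the 22965 tested genes passed (0.74% higher and 0.435% lower). The test was edgeR's quasi-likelihood test of Chaf1a cko over Ctrl with Benjamini-Hochberg adjustment over all tested genes and a threshold of 0.05. The median log2 fold change was -0.11 over the members and -0.01 over all tested genes. The groups did not overlap in 7 members, 4 higher and 3 lower, where 16.2% of all tested genes did not overlap (8.33% higher and 7.85% lower). DESeq2's Wald test called 6 members, where it called 2.09% of all genes. These shares cover genes at all levels past the filter. The members were chosen with earlier results of these data known, so the contrast with these shares is no test. In these bulk libraries fewer cells of a type and less RNA per cell cannot be told apart.

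Atp2a2 (Entrez gene 11938, chromosome 5, 122453513 to 122502225 in GRCm38, minus strand) encodes SERCA2, the pump that refills the store. Its 3 Chaf1a cko libraries, in the order of their replicate numbers as throughout, had 2841, 2959 and 2822 CPM, and the Ctrl libraries had 3610.2, 3408 and 3465 CPM. All 3 Chaf1a cko libraries lay below all 3 Ctrl libraries. The means were 2874 ± 74.3 CPM in Chaf1a cko and 3494 ± 104 CPM in Ctrl (SD, n = 3 each). The level fell by 17.8%, a log2 fold change of -0.28 (standard error, SE, 0.03; 95% interval -0.34 to -0.23; edgeR adjusted p 9.2e-06). The summed level of 10 cardiomyocyte markers moved the same way by a smaller amount, at 89485 to 90081 CPM in Chaf1a cko and 94340.3 to 97373 CPM in Ctrl. Of those 10 markers 2 rose, 3 fell and 0 were at 0 in every library, and their median log2 fold change was 0.04. Most of the sum came from Myh6 (37062 CPM in Chaf1a cko, 40460 CPM in Ctrl) and Ttn (33349 CPM in Chaf1a cko, 36142 CPM in Ctrl), both among the markers that fell. Markers of other cells moved in the same libraries. Of 10 fibroblast markers 5 fell (Col1a1, Col1a2, Col3a1, Dcn and Lum), and their sum was 3155 to 3193 CPM in Chaf1a cko and 3760 to 3857 CPM in Ctrl. Of 10 mural and smooth muscle markers 2 rose (Acta2 and Cnn1) and 2 fell (Myh11 and Actg2), and their sum was 1539 to 1552 CPM in Chaf1a cko and 1229 to 1309 CPM in Ctrl. Acta2 made up much of that sum, at 854 CPM in Chaf1a cko and 584 CPM in Ctrl, while the median log2 fold change of the 10 was -0.0048. The part of these 3 lists in the falls of Atp2a2, Ryr2 and Cacna2d2 and in the rise of Casq1 was not tested.

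Pln (Entrez gene 18821, chromosome 10, 53337686 to 53345999, plus strand) encodes phospholamban, the small membrane protein that inhibits SERCA2. Its coding sequence is shown because it spans only 159 bases and holds the control point of the pump, with the codons for the serine and threonine phosphorylated by protein kinase A and CaM kinase (codons 16 and 17) in capitals. The sequence is the GENCODE M21 transcript on GRCm38, 5′ to 3′, from start to stop codon.
Pln: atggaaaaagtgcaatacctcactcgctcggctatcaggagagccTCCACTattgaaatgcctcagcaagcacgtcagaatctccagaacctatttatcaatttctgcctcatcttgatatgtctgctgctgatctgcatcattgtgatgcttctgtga
Pln was at 725, 716 and 697 CPM in Chaf1a cko and at 644, 643 and 641 CPM in Ctrl. The groups did not overlap, yet Pln missed the threshold, with a log2 fold change of 0.15 (SE 0.04, 95% interval 0.07 to 0.23, edgeR adjusted p 0.0598). It passed in DESeq2's Wald test (adjusted p 0.0252) and with a filter of 10 CPM (edgeR adjusted p 0.0392). The gene Cep85l, which spans Pln on the other strand without exon overlap, was at 110 CPM in Chaf1a cko and 117 CPM in Ctrl (log2 fold change -0.08). In GENCODE M21 a second gene on the other strand, Gm47644, overlaps 1644 bases of the Pln exons, and its reads were not analysed here.

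Ryr2 (Entrez gene 20191, chromosome 13, 11553099 to 12106945, minus strand) encodes the ryanodine receptor, the channel that releases stored calcium. It was at 2800, 2786 and 2796 CPM in Chaf1a cko and at 3467, 3230.4 and 3175 CPM in Ctrl. The 3 Chaf1a cko libraries were nearly equal and all lay below the Ctrl libraries. The level fell by 15.1% (log2 fold change -0.24, SE 0.03, 95% interval -0.30 to -0.18, edgeR adjusted p 0.000118). Jph2 (Entrez gene 59091, chromosome 2, 163336242 to 163398049, minus strand) encodes junctophilin 2, which holds the surface membrane close to the store. It was at 167, 143 and 103 CPM in Chaf1a cko and at 152, 164 and 150 CPM in Ctrl. The groups overlapped, and the log2 fold change was -0.18 with a wide 95% interval from -0.64 to 0.29 (edgeR adjusted p 0.853).

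The 2 calsequestrin genes differed in size of response. Both proteins bind calcium inside the store, Casq2 as the cardiac form and Casq1 as the form of fast skeletal muscle. The last 40 codons before the stop of each coding sequence are shown because this acidic tail is the part known for binding calcium, with the codons for the acidic residues aspartate and glutamate in capitals. They come from GENCODE M21 transcripts on GRCm38, 5′ to 3′, Casq1 from the minus strand of chromosome 1 and Casq2 from the plus strand of chromosome 3.
Casq1: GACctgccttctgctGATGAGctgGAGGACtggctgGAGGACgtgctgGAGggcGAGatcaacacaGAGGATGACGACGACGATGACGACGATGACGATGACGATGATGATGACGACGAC
Casq2: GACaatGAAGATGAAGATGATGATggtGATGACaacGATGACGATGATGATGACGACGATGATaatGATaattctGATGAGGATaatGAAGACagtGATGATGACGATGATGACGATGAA
Of these 40 codons 27 encoded an acidic residue in Casq1 and 32 in Casq2, and over the whole coding sequence the share was 28.4% of 405 codons in Casq1 and 26.6% of 418 in Casq2. The longest run of identical bases shared by the 2 coding sequences was 25.

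Casq1 (Entrez gene 12372, chromosome 1, 172209894 to 172219895, minus strand) was at 56.5, 59.2 and 57.1 CPM in Chaf1a cko and at 25.0, 25.5 and 31.4 CPM in Ctrl. Every Chaf1a cko library held well over the highest Ctrl value. The means were 57.6 ± 1.40 CPM in Chaf1a cko and 27.3 ± 3.55 CPM in Ctrl (SD, n = 3 each), a 2.11-fold rise (log2 fold change 1.08, SE 0.12, 95% interval 0.83 to 1.33, edgeR adjusted p 4.3e-05). Per kb of exon these levels were 31.2 CPM in Chaf1a cko and 14.8 CPM in Ctrl, above the chemoreceptor 95th percentile of 2.73 CPM per kb. Of 16 skeletal muscle markers 0 passed the edgeR test, 0 were at 0 in every library, and their summed level overlapped between the groups, at 716 to 765 CPM in Chaf1a cko and 697 to 766 CPM in Ctrl. Per kb of exon Actn3, Myh1, Myh2, Myog, Myod1, Pvalb, Atp2a1, Ryr1 and Cacna1s lay below the chemoreceptor 95th percentile in both groups. Acta1, Ckm, Tnnt3 and Tnnc2 lay above it in both, and Myh4, Mylpf and Tnni2 were above it in only one group. Sums of these markers therefore hold background reads. After leaving out Acta1 and Ckm, which heart muscle also makes and which were chosen after the values were seen, the other 14 summed to 87.1 to 99.3 CPM in Chaf1a cko and 96.5 to 100.3 CPM in Ctrl. The nearest protein-coding neighbours in the table, Pea15a and Atp1a4, had log2 fold changes of -0.10 and -0.11, and these too were looked up after the values were seen. The antisense gene Gm17224 overlaps 156 exon bases of Casq1, as Gm43361 does 83 of Atp2a2, Gm17141 82 of Cacna2d2 and AC122399.1 296 of Slc8a1, and none of these was analysed here.

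Casq2 (Entrez gene 12373, chromosome 3, 102086415 to 102146514, plus strand) was at 514, 545 and 511 CPM in Chaf1a cko and at 492, 464 and 474 CPM in Ctrl. The groups did not overlap, but the log2 fold change of 0.13 (SE 0.04, 95% interval 0.04 to 0.23) did not pass (edgeR adjusted p 0.221).

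Among the L-type channel genes, Cacna1c (Entrez gene 12288, chromosome 6, 118587240 to 119197384, minus strand) encodes the pore. It was at 354, 312 and 369 CPM in Chaf1a cko and at 432, 326 and 424 CPM in Ctrl. The groups overlapped because Ctrl replicate 2 lay below 2 Chaf1a cko libraries, and the log2 fold change was -0.19 (SE 0.13, 95% interval -0.51 to 0.13, edgeR adjusted p 0.738). Without Ctrl replicate 2 it was -0.31 and passed (edgeR adjusted p 0.0483). Cacna2d1 (Entrez gene 12293, chromosome 5, 15934264 to 16374511, plus strand) encodes the main alpha-2-delta subunit of the heart, an extracellular partner that brings the channel to the membrane. It was at 103, 98.8 and 92.6 CPM in Chaf1a cko and at 72.5, 84.8 and 78.4 CPM in Ctrl. The groups did not overlap, and the log2 fold change of 0.32 (SE 0.08, 95% interval 0.14 to 0.49) missed the threshold in edgeR (adjusted p 0.0859) and passed in DESeq2's Wald test (adjusted p 0.0175).

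Cacna2d2 (Entrez gene 56808, chromosome 9, 107399733 to 107529346, plus strand) encodes a second alpha-2-delta subunit. It was at 8.06, 10.1 and 11.8 CPM in Chaf1a cko and at 21.7, 21.5 and 30.5 CPM in Ctrl, with at most 645 counts per library. Every Chaf1a cko library lay well under the lowest Ctrl library. The means were 9.998 ± 1.89 CPM in Chaf1a cko and 24.5 ± 5.14 CPM in Ctrl (SD, n = 3 each), and the level fell by 59.2% (log2 fold change -1.29, SE 0.20, 95% interval -1.71 to -0.87, edgeR adjusted p 0.00153). Per kb of exon the level was 1.71 CPM in Chaf1a cko, inside the range of the chemoreceptor genes (95th percentile 2.73 CPM per kb), and 4.21 CPM in Ctrl, above it. Of 11 atrial cardiomyocyte markers 1 rose, 7 fell and 0 were at 0 in every library in the first set. Their summed level was 2555 to 2612 CPM in Chaf1a cko and 2708 to 2771 CPM in Ctrl, or 1395 to 1440 CPM in Chaf1a cko and 1956 to 1973 CPM in Ctrl without Nppa, the marker that rose, which was left out after its value was seen. Their part in the Cacna2d2 result was not tested.

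The promoters of Casq1 and Cacna2d2 are shown because these genes had the largest rise and the largest fall among the members. Each is a 300-base promoter window in GRCm38.p6, 5′ to 3′ on the gene's strand, at chr1:172219846-172220145 for Casq1 and chr9:107399630-107399929 for Cacna2d2. Each window contains the RefSeq start of the gene given above, which need not be the start that the window was placed on. Capitals mark E-boxes (CANNTG) and GC boxes (GGGCGG or its reverse complement), searched on both strands.
Casq1: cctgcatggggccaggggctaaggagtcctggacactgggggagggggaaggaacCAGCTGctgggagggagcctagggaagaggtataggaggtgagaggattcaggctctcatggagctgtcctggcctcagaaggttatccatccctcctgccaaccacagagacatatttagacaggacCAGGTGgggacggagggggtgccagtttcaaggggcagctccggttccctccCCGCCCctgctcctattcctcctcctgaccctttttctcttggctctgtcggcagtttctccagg
Cacna2d2: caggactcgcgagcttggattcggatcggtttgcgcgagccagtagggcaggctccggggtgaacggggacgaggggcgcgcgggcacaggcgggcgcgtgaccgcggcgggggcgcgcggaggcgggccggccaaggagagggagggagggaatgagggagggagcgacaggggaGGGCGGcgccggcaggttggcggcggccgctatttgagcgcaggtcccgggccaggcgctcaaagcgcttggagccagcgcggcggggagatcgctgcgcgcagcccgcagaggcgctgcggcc
The Casq1 window held 2 E-boxes, 1 GC box and 4 CpG pairs at 60.3% G and C, and the Cacna2d2 window held 0 E-boxes, 1 GC box and 43 CpG pairs at 75.7%. Over all 32851 windows in the table, 72.3% held an E-box and 35.7% a GC box, and the medians were 7 CpG pairs and 52.7% G and C. These matches describe letters only.

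Slc8a1 (Entrez gene 20541, chromosome 17, 81373105 to 81738387, minus strand) encodes the sodium-calcium exchanger, which moves calcium out of the cell. It was at 975, 953 and 925 CPM in Chaf1a cko and at 1229, 876 and 827 CPM in Ctrl. Ctrl replicate 1 stood above the other 5 libraries, and the Chaf1a cko libraries lay within the Ctrl range. The log2 fold change was -0.04 (95% interval -0.53 to 0.45, edgeR adjusted p 0.975), and it turned to 0.16 without Ctrl replicate 1 (adjusted p 0.0756).

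**Figure D1:**
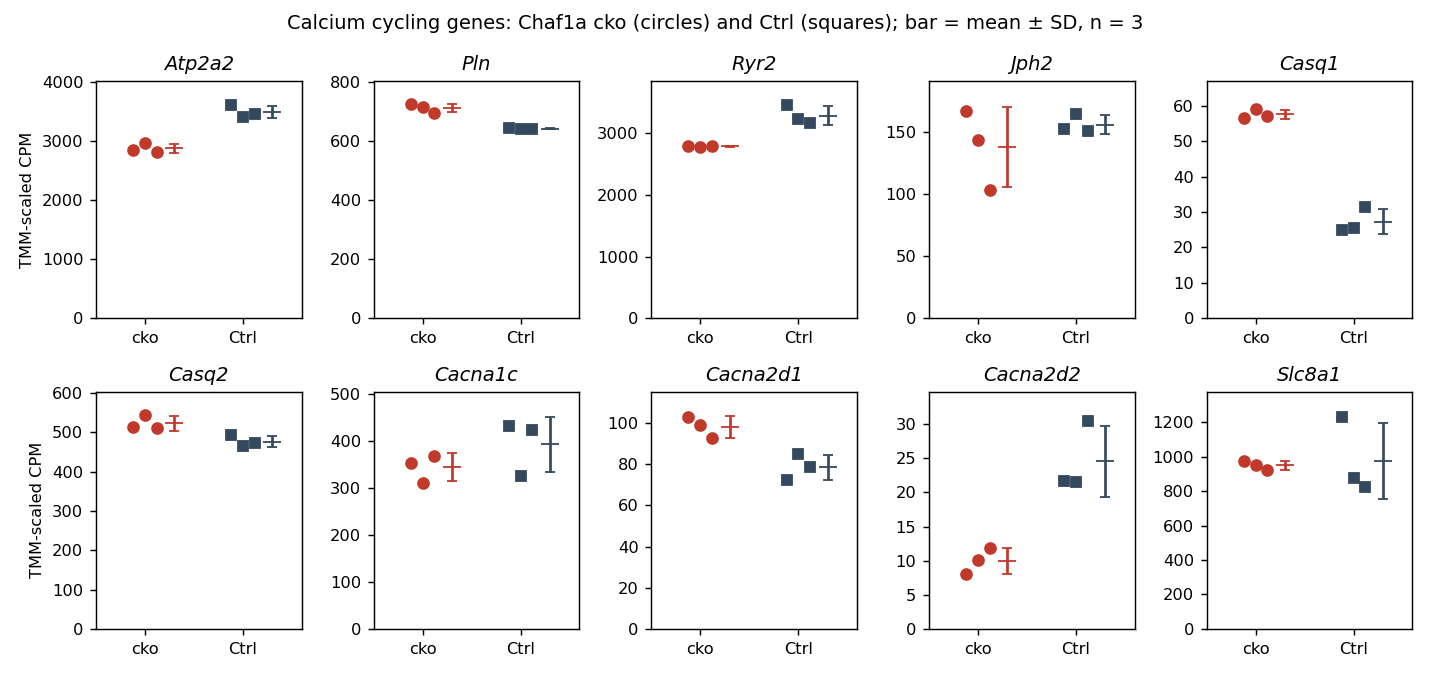
TMM-scaled CPM of the 10 genes in each first-set library, Chaf1a cko as circles and Ctrl as squares, with the mean and SD of 3 libraries beside them and each axis starting at 0. Casq1 lies higher and Atp2a2, Ryr2 and Cacna2d2 lie lower in all 3 Chaf1a cko libraries, while Jph2, Cacna1c and Slc8a1 overlap between the groups.

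Count ratios within a library do not depend on how libraries are scaled. The ratio of Pln to Atp2a2, of pump inhibitor to pump, was 0.255, 0.242 and 0.247 in Chaf1a cko and 0.178, 0.189 and 0.185 in Ctrl. The groups did not overlap, and the mean ratio was 1.35 times as high in Chaf1a cko (exact two-sided permutation test p = 0.1, the smallest that 3 against 3 allows). As Pln was higher and Atp2a2 lower in every Chaf1a cko library, the separation and this p followed from the values above and are no further test. The ratio of Casq1 to Casq2 was 0.110, 0.109 and 0.112 in Chaf1a cko and 0.0508, 0.0548 and 0.0662 in Ctrl, with no overlap. The ratio of Cacna2d2 to Cacna2d1 was 0.0784, 0.102 and 0.128 in Chaf1a cko and 0.299, 0.253 and 0.389 in Ctrl. It too was separated, with a mean in Chaf1a cko 0.328 times that in Ctrl, and both this and the calsequestrin ratio gave the same smallest exact permutation p = 0.1. For Cacna2d2 and Cacna2d1 the separation again followed from the values above, as every Chaf1a cko library was lower in Cacna2d2 and higher in Cacna2d1.

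**Figure D2:**
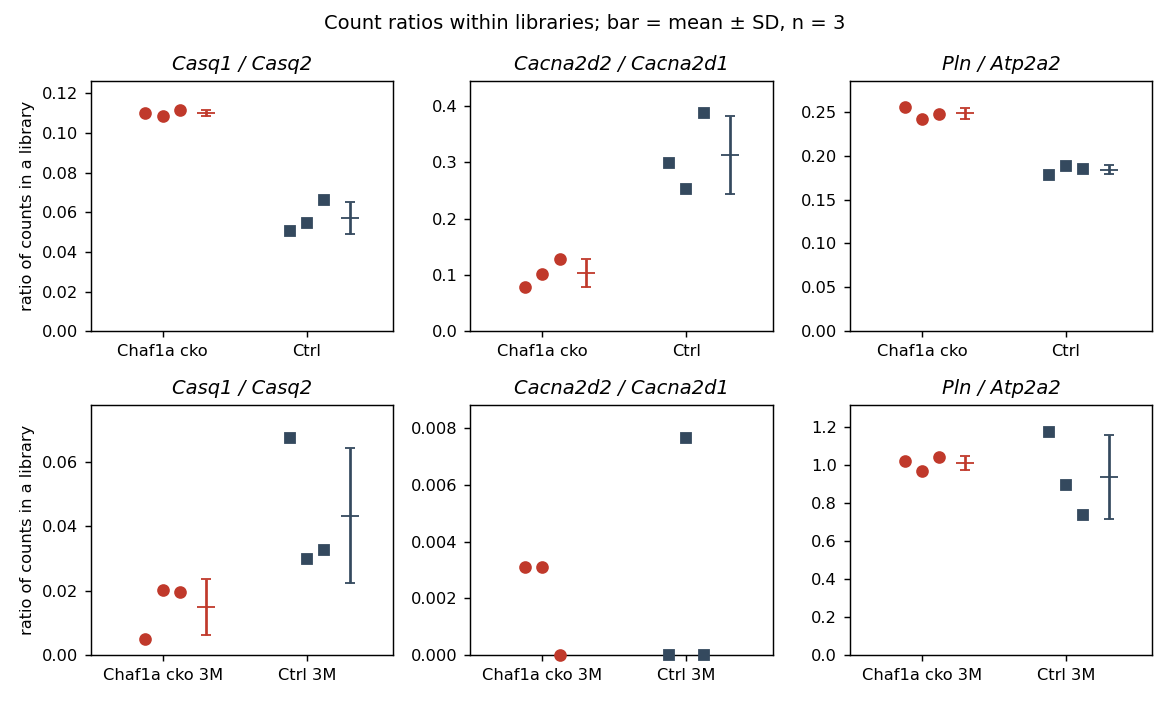
Ratios of counts within each library for 3 pairs of members, first set above and 3M set below, Chaf1a cko libraries as circles left of Ctrl libraries as squares, with mean and SD of 3 libraries and axes starting at 0. In the first set none of the 3 ratios overlaps between the groups, while in the 3M set the Pln to Atp2a2 ratio overlaps, and no bar is drawn where a library has 0 Cacna2d2 counts.

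Ordered by level per kb of exon, the members spanned a wide range in each group. In Chaf1a cko the order was Atp2a2 (545 ± 14.1 CPM per kb), Pln (258), Casq2 (204), Ryr2 (153), Slc8a1 (51.1), Jph2 (32.4), Casq1 (31.2), Cacna1c (22.7), Cacna2d1 (11.7) and Cacna2d2 (1.71). In Ctrl it was Atp2a2 (662 ± 19.8 CPM per kb), Pln (233), Casq2 (186), Ryr2 (181), Slc8a1 (52.5), Jph2 (36.6), Cacna1c (25.9), Casq1 (14.8), Cacna2d1 (9.37) and Cacna2d2 (4.21). Neighbours overlapped between libraries for Jph2 and Casq1 in Chaf1a cko and for Casq2 and Ryr2 in Ctrl, and Casq1 stood above Cacna1c in Chaf1a cko and below it in Ctrl. The exon lengths are merged GENCODE M21 exons, which may differ from those behind the counts. In the 3M table the order began with Pln, Atp2a2, Casq2 and Jph2 in both groups. Per kb of exon Pln was at 568 ± 111 CPM in Chaf1a cko 3M and 542 ± 119 CPM in Ctrl 3M, and Atp2a2 at 294 ± 57.7 CPM in Chaf1a cko 3M and 306 ± 42.7 CPM in Ctrl 3M. Ryr2 followed at 26.7 CPM per kb in Chaf1a cko 3M, overlapping with Cacna1c (22.4), and at 15.5 CPM per kb in Ctrl 3M, overlapping with Cacna2d1 (15.3), while Slc8a1 and Casq1 overlapped each other in both groups.

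In the 3M set no member passed the test, and the release channel gene Ryr2, the calsequestrin gene Casq2 and the channel pore gene Cacna1c had separate groups with the higher values in Chaf1a cko 3M. Of the 10 members 9 passed the filter on low counts and 0 passed the edgeR test, where 0.0144% of the 13925 tested genes passed (0.00718% higher and 0.00718% lower). Of the 9, 3 had an unadjusted p under 0.05 (6.93% of all tested genes did), and DESeq2's Wald test called 0 (0.517% of all tested genes). The median log2 fold change was 0.07 over the 9 members and -0.02 over all tested genes. In a single set of counts simulated at the spread of the 3M set, edgeR called 5.08% of 59 genes changed 2-fold and 74.7% of 87 changed 4-fold. A change under 2-fold would therefore seldom be called at this spread and depth.

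Ryr2 was at 596, 347 and 518 CPM in Chaf1a cko 3M and at 247, 263 and 339 CPM in Ctrl 3M. The groups were just separate, as Chaf1a cko 3M replicate 2 lay close to Ctrl 3M replicate 3. The log2 fold change was 0.78 (SE 0.24, 95% interval 0.23 to 1.34, edgeR adjusted p 0.607). Casq2 was at 325, 297 and 307 CPM in Chaf1a cko 3M and at 223, 167 and 197 CPM in Ctrl 3M. Its groups were well apart, with a log2 fold change of 0.66 (SE 0.19, 95% interval 0.24 to 1.09, edgeR adjusted p 0.595). Cacna1c was at 332, 314 and 374 CPM in Chaf1a cko 3M and at 128, 249 and 273 CPM in Ctrl 3M (log2 fold change 0.65, SE 0.28, edgeR adjusted p 0.712). These 3 were the members whose groups did not overlap, all higher in Chaf1a cko 3M, where 14.1% of all tested genes did not overlap (7.21% higher and 6.89% lower). The summed level of the 10 cardiomyocyte markers was higher in the same libraries, at 51101 to 54968 CPM in Chaf1a cko 3M and 34841 to 44792 CPM in Ctrl 3M, with 0 of the 10 passing the edgeR test and 0 at 0 in every library. Their median log2 fold change was -0.0019. Much of the sum was Myh6, at 26461 CPM in Chaf1a cko 3M and 16212 CPM in Ctrl 3M (log2 fold change 0.71). Mybpc3 was at 0.60 and Actc1 at 0.05, while other markers of the list went the other way, with -0.19 for Myl2, -0.59 for Myl3 and -0.29 for Ckmt2. The sum of 10 macrophage markers was lower, at 271 to 312 CPM in Chaf1a cko 3M and 446 to 517 CPM in Ctrl 3M, with 0 of the 10 passing and 0 at 0 in every library. The part of these 2 lists in the values of Ryr2, Casq2 and Cacna1c was not tested. Without Ctrl 3M replicate 1 the log2 fold change of Cacna1c was 0.38.

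The pump and its inhibitor did not separate the groups of the 3M set. Atp2a2 was at 1880.1, 1496 and 1279 CPM in Chaf1a cko 3M and at 1593, 1399 and 1849 CPM in Ctrl 3M (log2 fold change -0.06, 95% interval -0.53 to 0.42, edgeR adjusted p 0.972). Pln was at 1914, 1448 and 1335 CPM in Chaf1a cko 3M and at 1871, 1255 and 1360 CPM in Ctrl 3M (log2 fold change 0.07, 95% interval -0.45 to 0.58, edgeR adjusted p 0.969). Both genes overlapped between the groups. Their ratio was 1.02, 0.968 and 1.04 in Chaf1a cko 3M and 1.17, 0.897 and 0.736 in Ctrl 3M (exact two-sided permutation test p = 0.6). Jph2 was at 153, 246 and 196 CPM in Chaf1a cko 3M and at 104, 173 and 132 CPM in Ctrl 3M, with overlapping groups (log2 fold change 0.54, edgeR adjusted p 0.728).

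Casq1 was low in the 3M set, at 1.59, 6.03 and 5.98 CPM in Chaf1a cko 3M and at 15.1, 4.97 and 6.39 CPM in Ctrl 3M. Ctrl 3M replicate 1 was the highest and Chaf1a cko 3M replicate 1 the lowest, and the other 4 libraries lay between 4.97 and 6.39 CPM. The log2 fold change was -0.95 with a 95% interval from -2.39 to 0.49 (edgeR adjusted p 0.796). It was -0.32 without Ctrl 3M replicate 1 and -0.54 without Chaf1a cko 3M replicate 1. The ratio of Casq1 to Casq2 was 0.00490, 0.0203 and 0.0195 in Chaf1a cko 3M and 0.0676, 0.0299 and 0.0325 in Ctrl 3M, with no overlap and an exact two-sided permutation p = 0.1, the smallest possible. The log2 difference of this ratio was -1.69, and -1.02 without Chaf1a cko 3M replicate 1. Cacna2d1 was at 121, 82.6 and 27.8 CPM in Chaf1a cko 3M and at 177, 93.0 and 117 CPM in Ctrl 3M (log2 fold change -0.74, 95% interval -2.00 to 0.52, edgeR adjusted p 0.818), and the log2 fold change was -0.34 without Chaf1a cko 3M replicate 3 and -1.22 without Chaf1a cko 3M replicate 1. Slc8a1 was at 57.6, 29.1 and 55.0 CPM in Chaf1a cko 3M and at 101, 47.7 and 45.9 CPM in Ctrl 3M (log2 fold change -0.46, edgeR adjusted p 0.846), and without Ctrl 3M replicate 1 the log2 fold change was 0.01. Cacna2d2 was not tested, with 4, 4 and 0 counts in Chaf1a cko 3M and 0, 12 and 0 counts in Ctrl 3M.

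**Figure D3:**
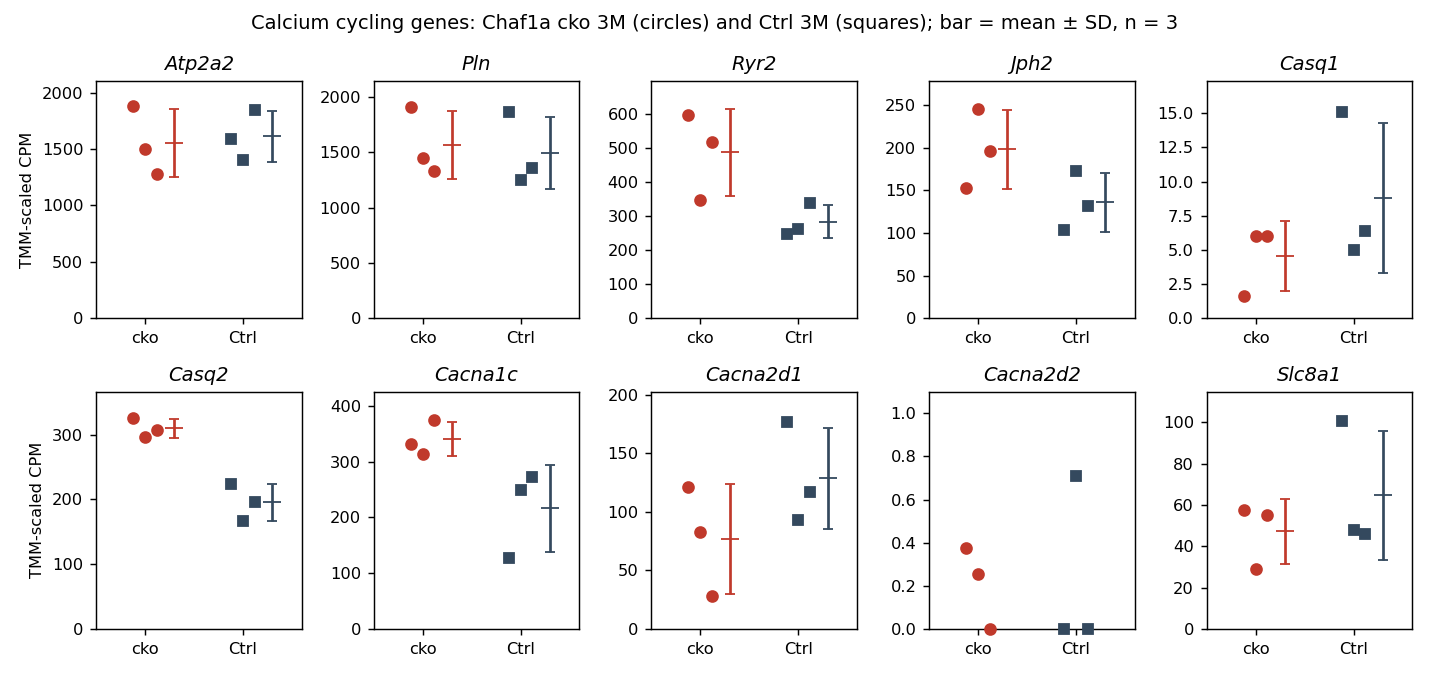
TMM-scaled CPM of the 10 genes in each 3M library, Chaf1a cko 3M as circles and Ctrl 3M as squares, with the mean and SD of 3 libraries and each axis starting at 0. Ryr2, Casq2 and Cacna1c lie higher in all 3 Chaf1a cko 3M libraries, the other tested members overlap between the groups, and Cacna2d2 has under 1 CPM in every library and no bar.

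Whether the effect of genotype differed between the sets was tested with an interaction term over the 12 libraries, where the difference is the 3M log2 fold change minus that of the first set. As sex mixture went with genotype in the first set, it cannot be told apart from genotype in this difference. Of the 10 members 0 passed in edgeR, where 0.0658% of the 22803 tested genes passed, and 5 members had an unadjusted p under 0.05 (9.47% of all tested genes did). Ryr2, which fell in the first set and had higher values in Chaf1a cko 3M, differed by 1.06 (SE 0.25, 95% interval 0.50 to 1.61, edgeR adjusted p 0.253), and it passed only when Chaf1a cko 3M replicate 2 was left out (difference 1.25, adjusted p 0.04999). Casq1 differed by -1.97 (95% interval -3.38 to -0.55, edgeR adjusted p 0.413). The differences of Casq2 (0.57), Cacna1c (0.88) and Jph2 (0.76) were the others with an unadjusted p under 0.05 in that edgeR fit. The difference of Cacna2d2 was not read, since its 3M counts were 12 or fewer.

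**Figure D4:**
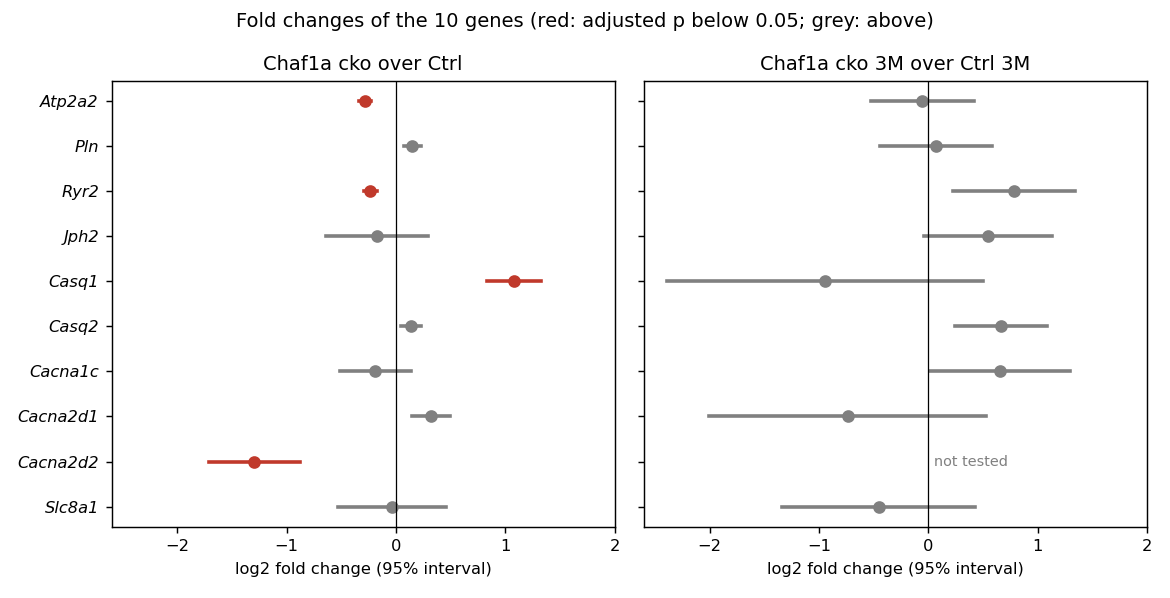
Log2 fold changes of the 10 genes with 95% intervals, Chaf1a cko over Ctrl on the left and Chaf1a cko 3M over Ctrl 3M on the right, red where the edgeR adjusted p was below 0.05. The intervals of the 3M set are wider, and the 4 red points of the first set are Atp2a2, Ryr2, Casq1 and Cacna2d2.

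The wider calcium pathway was described with 7 lists of 130 other genes, of which 128 were in the tables. In the first set 126 were tested, 2 rose, 3 fell and 121 did not pass the edgeR test, where 0.74% of all tested genes rose and 0.435% fell (median log2 fold change 0.01, against -0.01 over all tested genes). Sln, which encodes sarcolipin, another inhibitor of the calcium pump, was the pump regulator that fell. It is also 1 of the 7 atrial cardiomyocyte markers that fell, and the part of those markers in its fall was not tested. It was at 3.37, 2.76 and 3.55 CPM in Chaf1a cko and at 9.84, 12.9 and 11.7 CPM in Ctrl (log2 fold change -1.83, edgeR adjusted p 0.000531). Per kb of exon it was at 2.45 CPM in Chaf1a cko, below the chemoreceptor 95th percentile of 2.73 CPM per kb, and at 8.70 CPM in Ctrl. The other 8 tested pump regulators did not pass, among them Hrc, a histidine-rich calcium-binding protein of the store (-0.04), Ppp1r3a (-0.15) and Cisd2 (0.18).

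Of 24 genes of the release unit and the couplon, the junction where channel and receptor meet, 1 rose, 1 fell and 22 did not pass. Lrrc10, a cardiac leucine-rich repeat protein gene, rose to 91.4 ± 5.61 CPM in Chaf1a cko, against 69.1 ± 4.49 CPM in Ctrl (SD, n = 3 each; log2 fold change 0.40, edgeR adjusted p 0.0230). Cmya5, which encodes myospryn, fell to 249 ± 9.55 CPM in Chaf1a cko, against 303 ± 6.80 CPM in Ctrl (log2 fold change -0.28, edgeR adjusted p 0.00727). Of 24 tested genes of other calcium channel subunits and channel regulators, 1 rose, 1 fell and 22 did not pass. Cacna1a, a neuronal channel pore, rose to 23.9 ± 2.06 CPM in Chaf1a cko, against 14.1 ± 0.934 CPM in Ctrl (log2 fold change 0.76, edgeR adjusted p 0.0242), which per kb of exon was 3.01 CPM in Chaf1a cko and 1.78 CPM in Ctrl, around the chemoreceptor 95th percentile. Rrad, a small GTPase that restrains the L-type channel, fell to 87.8 ± 3.41 CPM in Chaf1a cko, against 112 ± 5.11 CPM in Ctrl (-0.35, edgeR adjusted p 0.0230). The calls of Lrrc10, Cacna1a and Rrad were lost in each of the 6 edgeR fits that left out 1 library, with log2 fold changes of 0.35 to 0.44, 0.69 to 0.81 and -0.38 to -0.31, and that of Cmya5 was lost without Chaf1a cko replicate 1 (-0.27), Chaf1a cko replicate 3 (-0.26) or Ctrl replicate 2 (-0.26).

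None of the tested members of the remaining lists passed in the first set in edgeR: 10 genes of storage and the lumen, 14 exchangers and membrane pumps, 29 genes of beta-adrenergic signalling and kinases, and 17 mitochondrial and store-operated calcium genes. Over the 7 lists 24 of the 126 tested genes had an unadjusted p under 0.05 in edgeR, where 10.1% of all tested genes did. The most abundant storage genes had log2 fold changes of 0.12 for Srl (sarcalumenin), 0.10 for Hspa5 and 0.12 for Calu. Those of the surface pumps were 0.11 for Atp1b1 and 0.08 for Atp2b1. Those of signalling were 0.21 for Gnas, 0.03 for Akap13 and 0.07 for Prkar1a, and those of mitochondria were 0.01 for Mfn2, 0.18 for Vdac2 and 0.12 for Vdac1. The groups did not overlap for Srl, Hspa5, Calu and Vdac2, all higher in Chaf1a cko (edgeR adjusted p 0.133 to 0.293). Over all tested genes 8.33% were separate and higher. For the others named here the groups overlapped.

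In the 3M set 114 of these genes were tested and 0 passed in edgeR, while 16 had an unadjusted p under 0.05, where 6.93% of all tested genes did (median log2 fold change -0.05, against -0.02 over all tested genes). The groups did not overlap for Adcy6, an adenylyl cyclase of the heart, at 1073 ± 194 CPM in Chaf1a cko 3M and 728 ± 49.5 CPM in Ctrl 3M (log2 fold change 0.56, edgeR adjusted p 0.645). The same held for Speg, a kinase that acts on the release unit, at 1078 ± 150 CPM in Chaf1a cko 3M and 726 ± 28.9 CPM in Ctrl 3M (0.57, adjusted p 0.607), and for Mfn2, a mitofusin, at 353 ± 3.45 CPM in Chaf1a cko 3M and 231 ± 22.6 CPM in Ctrl 3M (0.61, adjusted p 0.595; SD, n = 3 each, edgeR). Of the genes named for the first set, Srl (log2 fold change 0.68, edgeR adjusted p 0.569) and Lrrc10 (0.91, adjusted p 0.692) also had separate groups, higher in Chaf1a cko 3M. Over all tested genes 14.1% did not overlap. The following abundant genes overlapped between the groups. Their log2 fold changes were -0.23 for Hrc, -0.48 for Ppp1r3a and -0.11 for Cisd2 among pump regulators, -0.01 for Fkbp1a in the release unit, and 0.02 for Calr and -0.39 for Hspa5 in the lumen. Among channel genes they were 0.26 for Ahnak, -0.20 for Rrad and -0.23 for Cacnb2, and among surface pump genes the value was 0.16 for Fxyd1. Among signalling and mitochondrial genes they were -0.14 for Gnas, -1.10 for Ppp1cb, 0.16 for Vdac1 and 0.00 for Vdac2. Sln was listed at 0 counts in all but 1 of the 3M libraries.

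**Figure D5:**
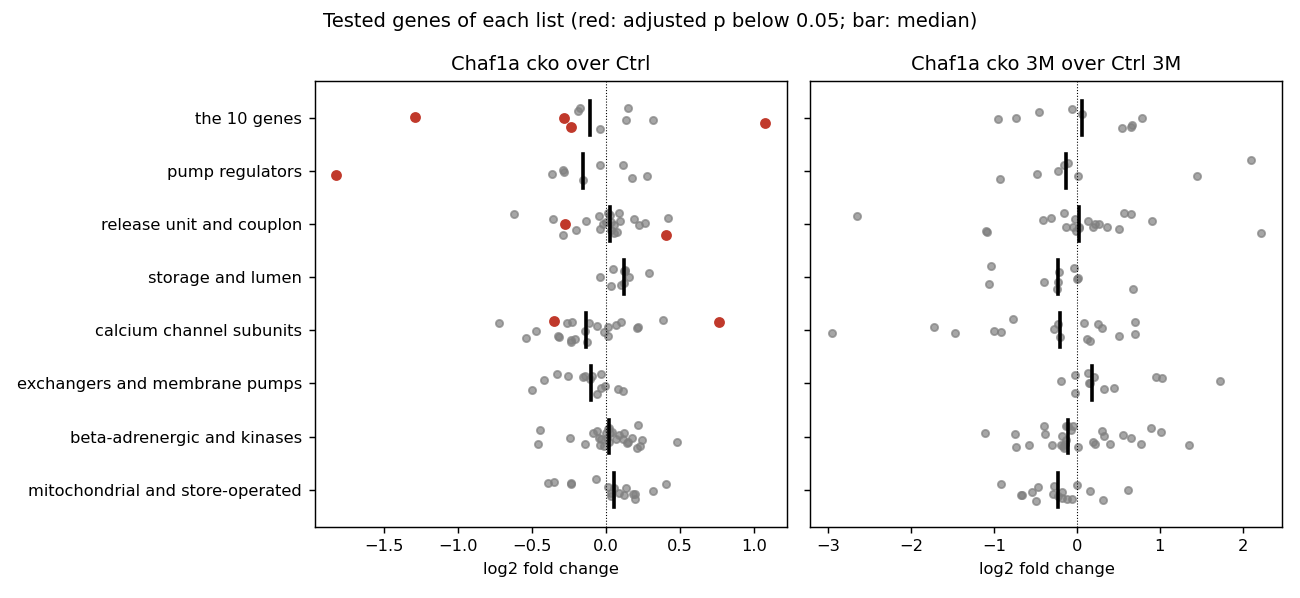
Log2 fold changes of the tested genes of the 10-gene group and of each pathway list, Chaf1a cko over Ctrl on the left and Chaf1a cko 3M over Ctrl 3M on the right, with red points for an edgeR adjusted p below 0.05 and a bar at the median. In the first set 4 of the 10 genes and 5 pathway genes are red, and in the 3M set none is red.

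The genes whose library-to-library pattern was most like that of the 4 members that passed were sought by Pearson's r of log2(CPM + 1) deviations from the group mean over the 12 libraries, among 8334 or 8335 other genes of at least 10 CPM in both sets. These r values describe the libraries and share their scaling, and the spread was larger in the 3M libraries. Nearest to Atp2a2 were Actc1, the cardiac actin gene (r = 0.968), Fh1, fumarase (0.968), and Acadvl, an enzyme of fatty acid oxidation (0.963). Nearest to Ryr2 were Pex13 (0.971), Gm15772 (0.962) and Prr13 (0.956). Nearest to Casq1, which had 17 to 161 counts in the 3M libraries, were Prrx1 (0.971), Zfp280d (0.970) and Tagln (0.963). For Cacna2d2, whose 3M counts were 12 or fewer, the highest values were 0.912 for Chd8, 0.894 for Nap1l1 and 0.891 for Trmt13.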

How the data were processed

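Gene counts of 12 libraries were used as the authors deposited them, as whole-number counts per gene symbol without normalization, in 2 tables of 6 libraries. Per the submitters' processing notes, the reads went through FastQC, Trimmomatic and HISAT2 on mm10. How reads were counted over genes, and whether by strand, is not given in these sources, so reads of genes that overlap on opposite strands cannot be told apart. Libraries were grouped by the genotype in their titles. Separate fits of the 2 tables used edgeR 4.0.16 under R 4.3.3 (filterByExpr with a minimum count of 10 and total of 15, TMM scaling, glmQLFit with robust estimation, glmQLFTest, two-sided, Benjamini-Hochberg), and both together for the interaction of set and genotype. CPM used the TMM factors. Intervals cover the spread between libraries. Total counts per library ran from 10569325 to 20896673. Replicate numbers were shared in the titles but did not pair the libraries. Ratios were tested by exact permutation. Gene spans and promoters are from RefSeq GRCm38.p6, the assembly behind mm10, and exons and coding sequences from GENCODE M21. Promoter windows matched 9 of the 10 symbols.

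Alternatives were DESeq2 1.42.0 size factors and Wald test, library size alone, 2 other filters, glmTreat against a 1.2-fold change, a replicate block and leaving out each library. The members, the pathway and marker lists and the tests were chosen with earlier results of these data known. Named genes were the members, Chaf1a, the called genes of each pathway list (at most 5), the 3 most abundant tested genes where fewer than 2 were called, and the 3 genes most like each called member; some genes that this rule names are not reported here. The fits were tested on simulated data.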

Additional observations from a re-analysis of the deposited data

How the results depend on the processing

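Across the alternatives the 4 first-set calls among the members, Atp2a2, Ryr2, Casq1 and Cacna2d2, held under both other scalings, both other filters, DESeq2's Wald test and each of the 6 fits without 1 library. Over those 6 fits the log2 fold change ran from -0.30 to -0.26 for Atp2a2, -0.26 to -0.20 for Ryr2, 1.02 to 1.19 for Casq1 and -1.43 to -1.11 for Cacna2d2. Against a 1.2-fold change (glmTreat) 2 members passed, Casq1 and Cacna2d2, and over all genes 32. Members called numbered 4 to 5 over the fits without 1 library, and 6 in DESeq2. First-set calls over all genes numbered 479 in DESeq2, and 128 to 201 over the fits without 1 library, lowest without Chaf1a cko replicate 2. The 3M calls over all genes, 2 in the main setting, were 6 with no filter, 0 with the replicate block, 72 in DESeq2 and 0 to 5 without 1 library, lowest without Chaf1a cko 3M replicate 1 or 2 and highest without Ctrl 3M replicate 1. Calls of a difference between the sets, 15 in the main setting, were 7 with library size alone, 6 with no filter, 0 with the replicate block and 1 to 110 over the 12 fits without 1 library (1 or 2 without any first-set library, 110 without Ctrl 3M replicate 2), and members among them 0 to 1. Higher against lower calls in the first set split 170 to 100 in the main setting, 191 to 175 with a filter of 10 CPM and 148 to 53 without Ctrl replicate 1. False calls in simulated counts were 14.4% (first) and 34.5% (3M) of DESeq2 calls, against 5.08% (first) and 6.85% (3M) of edgeR calls.

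Signs turned, without a call, in these fits without 1 library (lowest and highest log2 value). In the first set these were Slc8a1 (-0.15 to 0.16), Chaf1a (-0.13 to 0.27), Akap13 (-0.012 to 0.057), Hrc (-0.088 to 0.0099), Mfn2 (-0.012 to 0.036). In the 3M set they were Atp2a2 (-0.22 to 0.065), Pln (-0.10 to 0.26), Slc8a1 (-0.65 to 0.011), Chaf1a (-0.16 to 0.96), Cacnb2 (-0.45 to 0.29), Calr (-0.19 to 0.28), Cisd2 (-0.23 to 0.11), Fkbp1a (-0.11 to 0.072), Gnas (-0.23 to 0.016), Hspa5 (-0.63 to 0.046), Ppp1r3a (-0.83 to 0.58), Rrad (-0.54 to 0.41), Vdac1 (-0.020 to 0.25), Vdac2 (-0.091 to 0.051). For the difference between sets they were Pln (-0.22 to 0.11), Slc8a1 (-0.58 to 0.038). Signs also turned for Akap13 in the first set (-0.0019, filter of 10 CPM), Mfn2 in the first set (-0.0080, library size alone), Mfn2 in the first set (-0.016, filter of 10 CPM), Fkbp1a in the 3M set (0.013, library size alone), Vdac2 in the 3M set (-0.0022, replicate block). The cause was not tested. As the replicate numbers did not pair the libraries (r of same-numbered libraries' deviations first set -0.022 to 0.048, 3M set -0.028 to 0.002, and not every library highest with its own number), the replicate block has no design behind it: with it 192 genes and 4 members were called in the first set. Depth limits Cacna2d2 in the 3M set, at 0 to 12 counts.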
